A study of Mus musculus with 4 samples.

Results

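Mesothelial cells were picked out of the bleomycin-treated mouse lung by their own transcripts, and 873 cells were found among the 30860 cells that passed the quality limits. A cell was taken when at least 3 of 6 mesothelial genes (*Msln*, *Upk3b*, *Gpm6a*, *Wt1*, *Muc16* and *Slurp1*) had 1 or more unique molecular identifiers (UMIs, 1 per captured RNA molecule), and when *Ptprc* and *Cdh5*, which mark leukocytes and endothelial cells, had none. The quality limits were 200 to 7500 genes per cell and at most 15% mitochondrial UMIs. The selection rests on measured values, so the levels of these 8 genes are given below as a description and are not tested.

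The study asked what loss of *Tubb3*, the gene of β-III tubulin, does to cells of the fibrotic lung. Lungs came from 2 WT and 2 *Tubb3*-/- littermates, aged 8 to 11 weeks, on day 14 after 0.8 U/kg intratracheal bleomycin, which all 4 mice received. The homozygous knockout allele is a knock-in of *Cre* at the start codon of *Tubb3*. Each mouse gave a whole-cell sample, depleted of TER-119 cells, and a mural-enriched sample, from which cells positive for EpCAM, CD31, CD45 or TER-119 were removed and MCAM+ PDGFRα- cells were mixed 1:1 with MCAM- cells. The 4 tagged samples of a pool were run together on a 10x Genomics droplet instrument. The sort changes which mesenchymal cells are present, so that shares in the mural-enriched libraries are shares of a sorted mixture.

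Mesothelial cells form the single-layered lining of the pleura. They keep an epithelial character, with keratins, apical junctions and a coat of mesothelin and mucins, although they arise from mesoderm and express the transcription factor WT1. They secrete a lubricating fluid rich in hyaluronan, hold the enzymes of retinoic acid synthesis, and after injury can divide, make matrix and take on mesenchymal features, a process called mesothelial-to-mesenchymal transition.

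The 5 genes of the selection that are most used to name the cell are a surface protein that binds the mucin MUC16 (*Msln*), a uroplakin of the apical membrane (*Upk3b*), a neuronal-type membrane glycoprotein (*Gpm6a*), the transcription factor WT1 (*Wt1*) and the membrane mucin that carries the CA125 epitope (*Muc16*). In the GRCm38 annotation *Msln* lies on the minus strand at chr17:25748613-25754378 and *Wt1* on the plus strand at chr2:105126529-105173616. The promoters of the selecting genes found in the RefSeq table for GRCm38.p6, those of *Upk3b*, *Gpm6a* and *Muc16*, are shown with that of *Calca*, the single gene called between genotypes below. Each runs 5′ to 3′ on the strand of the gene from 250 bases before to 50 bases after the start of the transcript. Capitals mark matches, on either strand, to a TEAD motif (GGAATG) or an interferon response motif (GAAA, any 2 bases, GAAA). The *Upk3b* window is chr5:136038246-136038545 (plus), that of *Gpm6a*, the upstream of 2 starts, chr8:54779184-54779483 (plus), that of *Muc16* chr9:18674554-18674853 (minus) and that of *Calca* chr7:114636308-114636607 (minus).
Upk3b: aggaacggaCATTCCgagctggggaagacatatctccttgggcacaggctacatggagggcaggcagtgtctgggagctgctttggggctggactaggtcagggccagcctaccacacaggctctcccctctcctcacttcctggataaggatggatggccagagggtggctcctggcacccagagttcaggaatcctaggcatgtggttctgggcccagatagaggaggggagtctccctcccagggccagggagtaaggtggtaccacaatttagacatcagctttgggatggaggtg
Gpm6a: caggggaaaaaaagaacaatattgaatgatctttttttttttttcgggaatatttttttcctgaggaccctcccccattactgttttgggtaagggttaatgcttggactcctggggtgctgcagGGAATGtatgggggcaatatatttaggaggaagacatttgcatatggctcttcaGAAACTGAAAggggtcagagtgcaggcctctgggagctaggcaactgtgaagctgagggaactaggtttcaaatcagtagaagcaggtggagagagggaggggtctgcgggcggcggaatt
Muc16: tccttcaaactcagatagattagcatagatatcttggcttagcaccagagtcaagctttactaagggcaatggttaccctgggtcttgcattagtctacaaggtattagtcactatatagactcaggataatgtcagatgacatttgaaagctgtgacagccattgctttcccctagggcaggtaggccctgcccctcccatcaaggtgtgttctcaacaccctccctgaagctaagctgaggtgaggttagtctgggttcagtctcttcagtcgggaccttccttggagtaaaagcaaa
Calca: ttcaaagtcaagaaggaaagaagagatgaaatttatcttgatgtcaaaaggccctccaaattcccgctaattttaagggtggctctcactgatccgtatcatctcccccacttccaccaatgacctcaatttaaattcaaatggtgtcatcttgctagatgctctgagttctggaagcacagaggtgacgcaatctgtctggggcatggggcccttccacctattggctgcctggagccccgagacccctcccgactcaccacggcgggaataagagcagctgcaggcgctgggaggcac
The TEAD match starts 241 bases before the start site in *Upk3b* and 125 bases before it in *Gpm6a*, where an interferon match starts at 71 bases before it. *Muc16* and *Calca* held neither of these, nor the AP-1 motif TGANTCA or the EGR and WT1 motif GCGNGGGCG. The window of the downstream *Gpm6a* start, chr8:54954478-54954777 (plus), which is not shown, held no match to any of these motifs. Of the 122 genes named or looked up for this text, 90 had a promoter in the table, and 20 of these had a TEAD match, 10 an AP-1 match, 13 an EGR/WT1 match and 7 an interferon match. Among all 32851 promoters of the table, 14.7% held the TEAD motif, 7.81% AP-1, 5.55% EGR/WT1 and 3.44% the interferon motif. A named gene was counted if any of its promoters matched, while these shares count each promoter once. The counts and the shares can therefore not be compared directly. The motifs do not overlap one another in their letters, and a match is a description of these windows only.

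Of the 873 cells, 98 were in whole-cell libraries (15 and 37 in WT, 26 and 20 in *Tubb3*-/- mice) and 775 in mural-enriched libraries (189 and 205 in WT, 190 and 191 in *Tubb3*-/- mice). Summed over both libraries, a mouse gave 204 to 242 mesothelial cells and 4290414 to 4695315 UMIs, and the median cell had 17332 to 19398 UMIs. A total of 1000 cells had at least 3 of the 6 genes. Of these, 127 were left out for *Ptprc* or *Cdh5*, among them 66 with *Cdh5* alone, 49 with *Ptprc* alone and 12 with both. The deposited libraries held 32121 cells and 41462258 to 95036340 gene UMIs each. In all, 59 barcodes were found in both pools, 22 of them tagged to the same mouse, and 3 belonged to mesothelial cells. Replicate 1 of each genotype had Y-linked transcripts and replicate 2 had *Xist* (78 and 90 *Xist* UMIs in the mesothelial cells of the replicates 1, 2749 and 2767 in the replicates 2), so both genotypes held 1 mouse of each sex.

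*Tubb3* served as the check of the genotype. Over all cells it was at 4.06 and 2.42 CPM (UMIs of a gene per 1000000 UMIs of all genes) in WT against 0.568 and 0.539 CPM in *Tubb3*-/- mice. *Cre* UMIs were counted in the *Tubb3*-/- mice alone, 2 and 0 in their whole-cell and 1 and 2 in their mural-enriched libraries. In mesothelial cells *Tubb3* was close to absent in both genotypes, with 8 and 7 UMIs in WT and 3 and 6 in *Tubb3*-/- mice, and no mesothelial cell had a *Cre* UMI. At these counts a change of *Tubb3* within mesothelial cells was not detectable.

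The cells carried the profile of mesothelium beyond the genes that chose them. Of 30 other mesothelial markers, 22 were higher in these cells than in any of 5 other classes set apart by marker genes (fibroblast-, mural-, epithelial-, endothelial- and immune-marked cells), 20 by more than 2 times and 11 by more than 10 times. The count was a description, since the cells were chosen by genes that go together with these. *Lrrn4*, a leucine-rich repeat membrane protein of mesothelium, was at 372 ± 72.9 CPM (SD, n = 4 mice) against 1.06 CPM in fibroblast-marked cells. *Rspo1*, which encodes R-spondin 1, a secreted enhancer of Wnt signaling, was at 325 ± 40.6 CPM and the zinc finger factor *Bnc1* at 58.7 ± 13.4 CPM. *Aldh1a2*, which makes retinoic acid, was at 379 ± 59.2 CPM, and the claudin *Cldn15* at 237 ± 47.8 CPM. The keratins *Krt19* (393 ± 114 CPM), *Krt18*, *Krt8* and *Krt7* were present, yet were higher in epithelial-marked cells. *Itln1* had no UMI and *Calb2* was at 0.116 CPM, although both are used to mark mesothelium elsewhere.

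Of the selecting genes, 5 were found in most of the cells, and *Slurp1*, a secreted Ly6 protein, in 48.8%. *Msln* had a UMI in 96.1% of mesothelial cells and in 18.9% of fibroblast-marked cells, with medians of 18515 and 19064 UMIs per cell. *Wt1* was found in 87.4% against 1.84% of cells, and *Muc16* in 82.9% against 1.61%. *Upk3b* was in 92.6% and *Gpm6a* in 95.6% of mesothelial cells. Classes that should lack these genes also held some, such as *Msln* in 5.35% of immune-marked cells (median 10212 UMIs). The source of these UMIs was not tested. As levels, *Msln* was at 2082 ± 183 CPM, *Gpm6a* at 2065 ± 335 CPM, *Upk3b* at 939 ± 213 CPM and *Slurp1* at 748 ± 217 CPM. The next class was endothelial-marked cells, with 84.7 CPM of *Msln*. Among endothelial-marked cells with fewer than 3 of the 6 genes this level was 9.37 CPM.

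**Figure D1:**
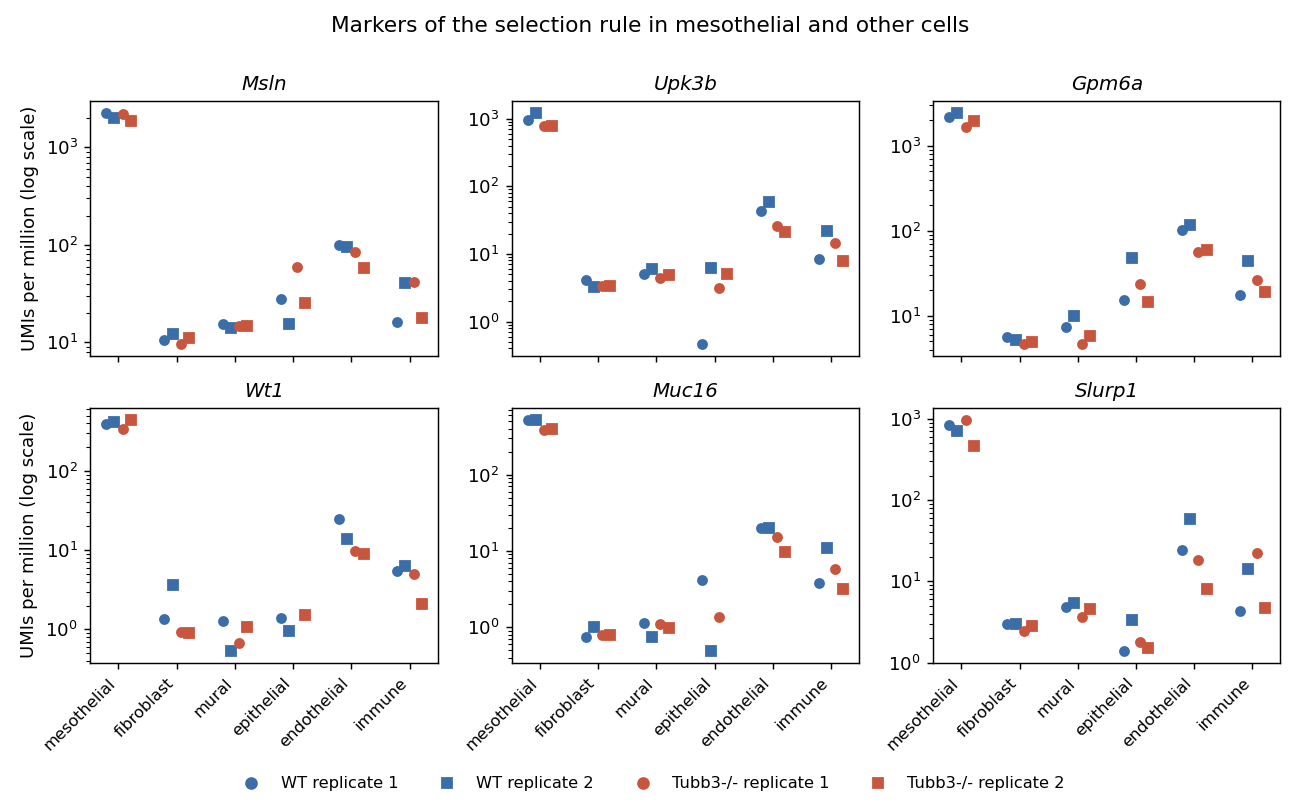
Level of each of the 6 selecting genes in CPM (log axis) in 6 classes of cells, 1 point per mouse; blue marks WT, red Tubb3-/-, circles replicate 1 and squares replicate 2. A value of 0 is not drawn. In every panel the 4 mesothelial points lie above all others, as the selection fixes.

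Other genes set these cells apart. Among 3717 genes with at least 50 CPM in mesothelial cells, 904 were highest there and 42 exceeded the next class by more than 10 times. The steepest was *Nxph1*, a secreted ligand of neurexins, at 336 ± 53 CPM against 7.08 CPM, a ratio of 47.4. It was followed by the potassium channel gene *Kcnd2* (141 CPM, ratio 38.8) and *Wt1os*, annotated beside *Wt1* (67.6 CPM, ratio 34.5). The chemokine-like gene *Tafa2* came next, at 52.8 ± 52.2 CPM, with an SD close to its mean.

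The edge of the selection was not sharp. With exactly 3, 4, 5 and 6 of the genes there were 122, 67, 343 and 341 cells, and 905 further cells with neither *Ptprc* nor *Cdh5* had exactly 2. Cells just inside the limit were close to those just outside it: *Msln* was at 50.2 CPM with 3 genes and 40.1 CPM with 2, *Pdgfra* at 345 and 333 CPM, and *Col1a1* at 3755 and 3275 CPM. *Lrrn4*, which the rule did not use, was at 12.4 CPM with 3 genes, 1.88 CPM with 2 and 502 CPM with all 6. The fibroblast receptor gene *Pdgfra* went the other way along the same series, down to 22.9 CPM with all 6. Of the 873 cells, 298 had a *Pdgfra* UMI, 237 a *Pdgfrb* UMI and 51 an *Epcam* UMI, and 434 had none of these. Scrublet, which scores droplets that look like 2 cells, marked 63 mesothelial cells, all in mural-enriched libraries, or 8.13% of them against 3.82% of all cells there. Results below are therefore also given without such cells where they differ.

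**Figure D2:**
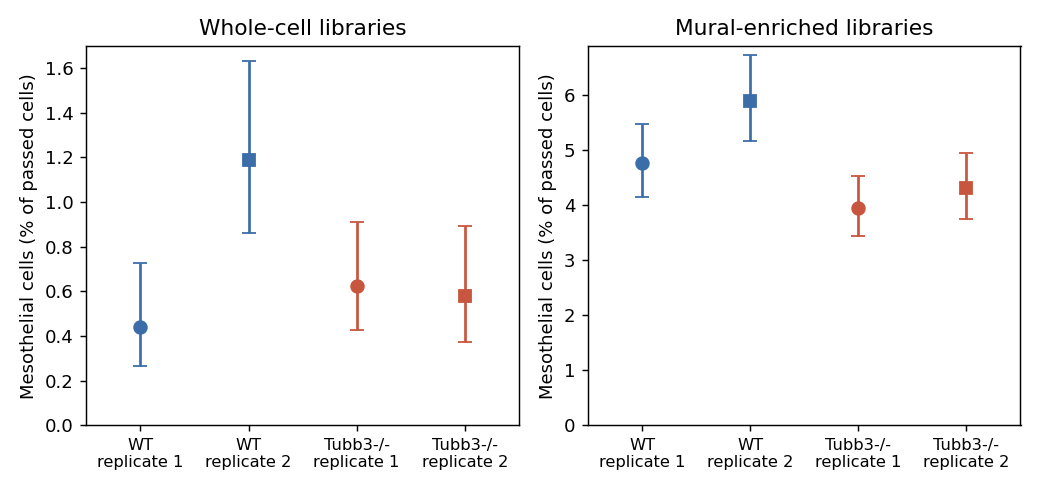
Mesothelial cells as a percentage of all passed cells in each library, whole-cell at left and mural-enriched at right, with Wilson 95% intervals that cover counting error only; blue marks WT and red Tubb3-/-. WT replicate 2 is highest in both panels, and in the mural-enriched panel both Tubb3-/- mice (3.95% and 4.31%) lie below both WT mice.

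The share of mesothelial cells was compared first. In the whole-cell libraries they made up 0.440% and 1.19% of cells in WT against 0.622% and 0.579% in *Tubb3*-/- mice. The *Tubb3*-/- values lay between the WT values. The means were 0.813% ± 0.527 and 0.600% ± 0.0307 (SD, n = 2 mice each), a log2 ratio of -0.44 with an exact two-sided permutation p of 1.0. Without WT replicate 2 the ratio turned to 0.45. In the mural-enriched libraries the shares were 4.76% and 5.89% in WT and 3.95% and 4.31% in *Tubb3*-/- mice. Both *Tubb3*-/- mice were below both WT mice, with means of 4.13% ± 0.257 and 5.32% ± 0.804, a log2 ratio of -0.37 and an exact permutation p of 0.33, the smallest that 2 against 2 mice allow. The plot of shares shows the counting intervals, of which those of WT replicate 1 and both *Tubb3*-/- mice overlap.

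Between genotypes, 1 of 12681 genes passed the test in mesothelial cells: *Calca*, which encodes calcitonin and the neuropeptide CGRP by alternative splicing. UMIs were summed per mouse over the mesothelial cells of both libraries and tested with edgeR's quasi-likelihood test. Values per mouse are normalized CPM, scaled with the library factors of the test. *Calca* was at 2.13 and 2.33 normalized CPM in WT mice against 41.1 and 40.1 in *Tubb3*-/- mice, and the groups did not overlap. It rose by 4.17 ± 0.21 (SE) on the log2 scale in *Tubb3*-/- mice, with an adjusted p of 0.00441 by edgeR. Genes called higher made up 0.00789% of all genes tested, and no gene was called lower. At an unadjusted p under 0.05, 521 genes (4.11%) were higher and 567 (4.47%) lower. Of the other methods, limma-voom called none, and DESeq2 28 higher and 15 lower. The main test fitted genotype alone. A block by replicate number, which went with the sex of the mice, called many more genes and is given in the closing section. Without WT replicate 1 there were 26 calls, without WT replicate 2 there were 2, and without *Tubb3*-/- replicate 1 or 2 there were 3 and 7.

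The *Calca* transcripts sat in few cells. A UMI was found in 59 mesothelial cells, 3 and 7 in WT against 23 and 26 in *Tubb3*-/- mice. In cells thinned to 5000 UMIs the share with *Calca* was 1.01% and 1.27% in WT against 5.83% and 9.13% in *Tubb3*-/- mice (exact permutation p = 0.33, the smallest possible), and 0.1% in fibroblast-marked cells. Unthinned, these shares were 1.47%, 2.89%, 10.6%, 12.3% and 0.557%, and 24 cells with fewer UMIs were left out of the thinned ones. In *Tubb3*-/- replicate 1, 1 cell held 88 of the 185 *Calca* UMIs, and in replicate 2, 1 cell held 60 of 175. Without the cell with most UMIs in each mouse the levels were 0.466 and 1.70 CPM in WT and 21.1 and 26.7 CPM in *Tubb3*-/- mice, so the groups remained apart. Of the 59 cells, 53 had *Lrrn4*, which the rule did not use. By number of selecting genes, 36 had 5 or 6, 19 had 4 and 4 had 3, 20 had a *Pdgfra* UMI, and 4 were marked as doublets. In the other classes *Calca* was at 0.357 CPM in fibroblast-marked, 13.5 ± 6.52 CPM in immune-marked and 9.71 ± 18.5 CPM in epithelial-marked cells. *Ptprc* is 0 in the selected cells by the rule, and of the other 7 immune markers the summed level was 124 and 336 CPM in WT and 152 and 278 CPM in *Tubb3*-/- mesothelial cells. The gene was also called with at least 4 of the 6 markers, without other lineages and without each mouse in turn. The log2 change was 3.83 to 5.40 over the alternatives that could be fitted. *Calca* missed the threshold with limma-voom (adjusted p = 0.0846) and had too few UMIs to be tested in the whole-cell libraries alone, where 0 and 5 UMIs were counted in WT and 7 and 0 in *Tubb3*-/- mice.

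**Figure D3:**
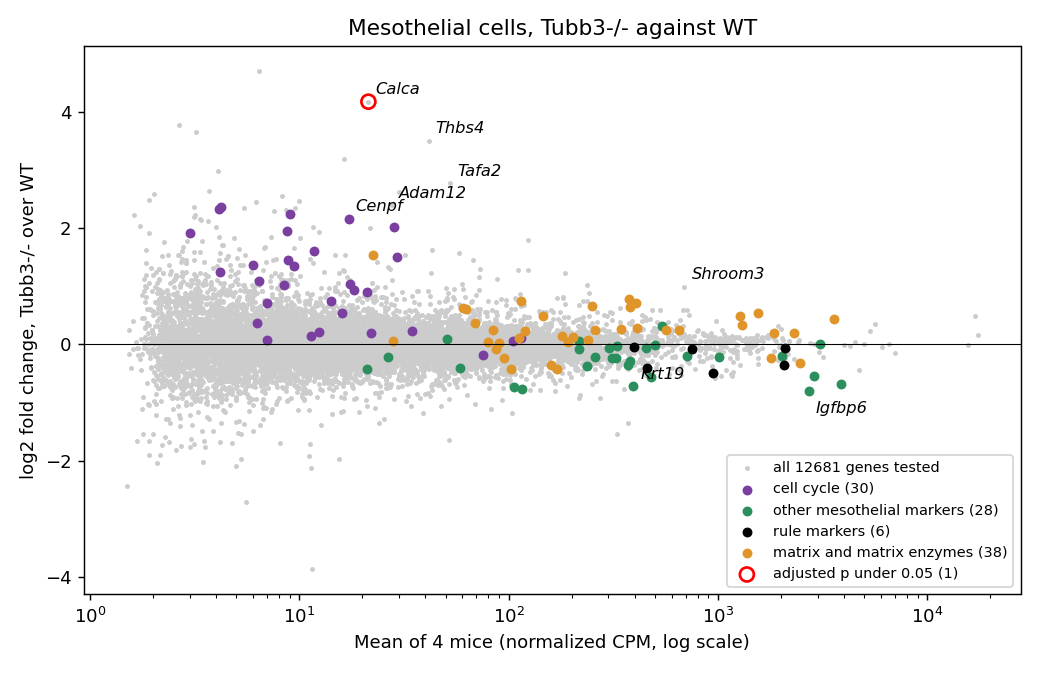
Log2 fold change of Tubb3-/- over WT against the mean normalized CPM of 4 mice (log axis) for the 12681 genes tested in mesothelial cells; colors mark 4 gene lists and the red ring the gene with an adjusted p under 0.05. Calca stands alone as called, cell cycle genes lie mostly above 0 and other mesothelial markers mostly below it, none of them called.

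The other 9 genes of lowest p were not called, and their values are given as measured. *Shroom3*, an actin-binding organizer of apical constriction, was at 501 and 425 normalized CPM in WT and 924 and 916 in *Tubb3*-/- mice, a log2 difference of 0.99 (edgeR adjusted p = 0.126). It was found in 90.9% to 95.8% of the cells of each mouse, and without the cell with most UMIs of each mouse it was at 474 and 411 CPM in WT and 866 and 898 CPM in *Tubb3*-/- mice. *Adam12*, a membrane metalloprotease of activated mesenchyme, was at 5.91 and 11.7 against 45.1 and 48.1 normalized CPM. *Rcan2*, an inhibitor of calcineurin, was at 62.7 and 81.3 against 162 and 188. In *Ltbp2*, a matrix protein related to the latent TGF-beta binding proteins, the values were 71.9 and 57.6 against 166 and 147, with 56.5% of its UMIs in cells with exactly 3 of the selecting genes. *Myl7*, an atrial-type myosin light chain, was lower in the *Tubb3*-/- mice, at 276 and 293 in WT against 155 and 157, and so was *Lrat*, which esterifies retinol for storage, at 17.3 and 18 against 5.11 and 4.12. In all of these the genotypes did not overlap. *Lrat* was carried by few cells near the limit of the selection, with 62.3% of its 199 UMIs in cells with exactly 3 selecting genes and 83.4% in a state of high *Pdgfra* described below (state 4, 118 cells, 25.4% of them marked as doublets).

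The remaining genes of lowest p drew many of their UMIs from few cells. *Thbs4*, a thrombospondin, was at 5.44 and 7.84 normalized CPM in WT and 51.7 and 101 in *Tubb3*-/- mice (log2 difference 3.5, edgeR adjusted p = 0.126), but 1 cell held 193 of the 233 UMIs of *Tubb3*-/- replicate 1 and 1 cell held 406 of the 439 of replicate 2. Without the highest cell of each mouse it was at 3.96 and 2.98 CPM against 8.71 and 7.65 CPM. Of its UMIs, 88.3% were in cells with exactly 3 of the selecting genes. *Cenpf*, a kinetochore protein of dividing cells, was at 6.62 and 5.93 against 27.7 and 28.6, with 85 of the 125 UMIs of *Tubb3*-/- replicate 2 in 1 cell. Without the highest cell of each mouse *Cenpf* was at 4.20 and 2.13 CPM in WT and 15.7 and 9.27 CPM in *Tubb3*-/- mice, still apart. The neural adhesion gene *Chl1* was at 5.2 and 5.08 against 19.3 and 20.2, and without these cells at 3.96 and 3.41 CPM against 7.62 and 14.1 CPM. State 4 held 87.8% of the *Chl1* UMIs, at 58.4 CPM, and no other state was above 3.84 CPM.

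**Figure D4:**
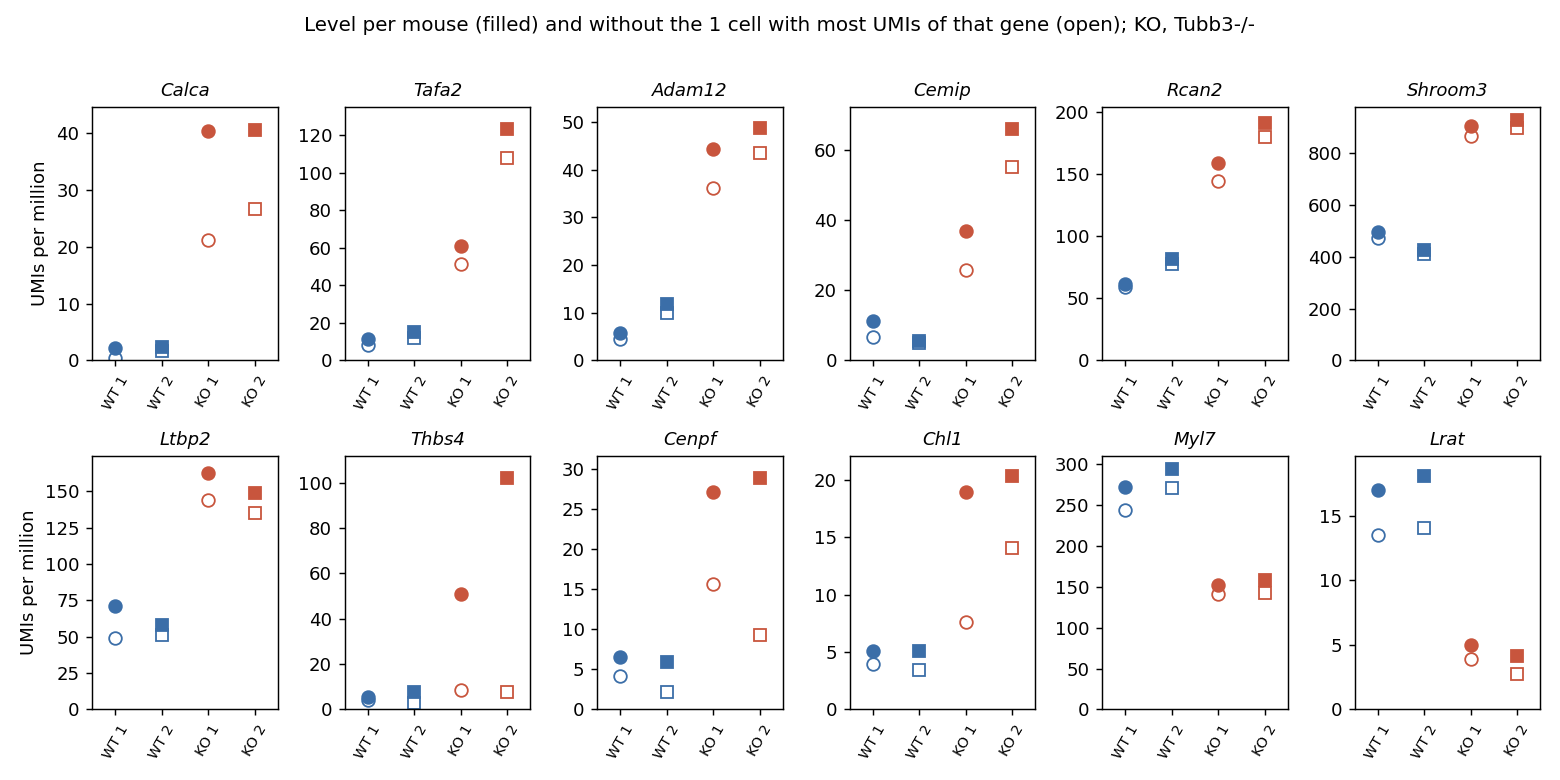
Level in CPM in each mouse (filled) and without the 1 cell with most UMIs of that gene (open) for 12 genes, the 10 of lowest p and Tafa2 and Cemip; WT in blue and Tubb3-/- (KO) in red, each panel with its own axis from 0. The open Thbs4 symbols of all mice lie below 10, while those of Shroom3, Rcan2 and Myl7 stay near the filled ones and the genotypes stay apart.

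The lists that follow were described by how many of their tested genes had an unadjusted p under 0.05 in each direction and by their median log2 difference, beside 4.11% higher, 4.47% lower and a median of 0.01 over all genes. In addition, the 2 *Tubb3*-/- mice were both above both WT mice for 19.6% of all genes and both below for 19.3%. No gene of any list was called in this test. Other than *Calca*, no gene named from here to the comparison of pools had an edgeR adjusted p under 0.05 in it.

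Of 28 other mesothelial markers tested, 8 were lower and none higher at an unadjusted p under 0.05, the median was -0.22, and 17 were below both WT mice in both *Tubb3*-/- mice. The 6 selecting genes, which chose the cells and are not tested, had a median difference of -0.23 (-0.49 to -0.05). All 6 were found in 96 of 204 and 101 of 242 WT cells, against 80 of 216 and 64 of 211 *Tubb3*-/- cells. In cells with exactly 3 and with all 6 of them, *Igfbp5* was at 248 and 6568 CPM and *Krt19* at 46.1 and 604 CPM. The part of this mix in the differences was not tested. With at least 4 selecting genes the median of the other mesothelial markers was -0.15, with 7 lower and 1 higher. *Igfbp6*, a binding protein of insulin-like growth factors, was at 3139 and 3774 normalized CPM in WT and at 2104 and 1832 in *Tubb3*-/- mice. Its relative *Igfbp5* was at 4350 and 5217 against 3239 and 2697. *Krt19* was at 468 and 514 against 324 and 273, and *Lrrn4* at 365 and 475 against 317 and 337. *Rarres2*, the precursor of chemerin, was at 3407 and 3441 against 2673 and 2001. In contrast, *Msln* (2307 and 1969 against 2237 and 1859) and the glypican *Gpc3* (3014 and 3114 against 2641 and 3543) overlapped between genotypes. Without states of many doublets, the median of the other mesothelial markers was -0.16, with 9 lower and 1 higher. In the whole-cell libraries alone it was -0.11, with 1 lower and 2 higher, and in the mural-enriched ones alone -0.29, with 12 lower and none higher.

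Epithelial junction genes did not move as a group (18 tested, 2 higher, 4 lower, median 0.04). The tight junction protein gene *Cgn* was at 60.1 and 43.2 in WT and 26.0 and 30.9 in *Tubb3*-/- mice, and *F11r* at 227 and 243 against 185 and 196. The hyaluronan and cell coat list had 1 gene higher and 1 lower of 19. This list includes the selecting genes *Msln* and *Muc16*, so its count is a description only. The higher one was *Prg4*, the boundary lubricant lubricin, at 25.8 and 16.7 against 52.4 and 77.4 normalized CPM.

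Matrix genes and genes of mesothelial-to-mesenchymal transition were counted next. Of 38 matrix genes, 10 were higher and 3 lower with a median of 0.24, and of 19 transition genes 4 were higher and none lower, also with a median of 0.24. The basement membrane collagen *Col4a1* was at 345 and 269 in WT and 561 and 440 in *Tubb3*-/- mice, and *Col4a2*, its partner chain, at 216 and 172 against 328 and 287. For the fibrillar collagen *Col1a2* the values were 1417 and 1137 against 1953 and 1736. Periostin (*Postn*) was at 79.0 and 57.4 against 130 and 102, with 168 of the 447 UMIs of *Tubb3*-/- replicate 2 in 1 cell. Fibronectin (*Fn1*) was at 668 and 527 against 961 and 745, but turned lower, by -0.39 on the log2 scale, once cells with UMIs of other lineages were left out. Decorin (*Dcn*) was lower, at 2511 and 2974 against 2286 and 2085. The summed level of 11 fibroblast markers in these cells was 6247 and 5962 CPM in WT and 6867 and 6135 CPM in *Tubb3*-/- mice, with none at 0. That list shares *Dcn* with the matrix list and *Col1a1* with the transition list, so its sum is not a separate measure of fibroblast RNA. In cells with all 6 selecting genes *Dcn* was at 2489 CPM. The sum of 11 mural markers was 1766 and 892 against 1928 and 1161 CPM. State 4, described below, made up 13.5% of the cells and held 36.3% of both the *Col4a1* and the *Col4a2* UMIs. It also held 49.0% of the *Col1a2*, 49.7% of the *Postn*, 72.8% of the *Fn1* and 19.3% of the *Dcn* UMIs. The part of other cell types in the matrix values was not tested. Without states of many doublets, 16 matrix genes were higher and 3 lower, with a median of 0.30. With at least 4 of the selecting genes the transition median was 0.09, with 2 higher and none lower. In the whole-cell libraries alone it was -0.13 (12 tested, 2 higher, none lower), and of 33 matrix genes 5 were higher and 4 lower there, with a median of 0.10.

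Cell cycle genes had the largest median of all lists. Of 30 tested, 17 were higher and none lower, the median was 1.03, and 22 were above both WT mice in both *Tubb3*-/- mice. *Top2a*, a topoisomerase of replicating cells, was at 22.2 and 8.69 in WT and 47.7 and 38.7 in *Tubb3*-/- mice, and *Mki67* at 18.2 and 6.99 against 23.8 and 24.3. The most abundant members, *Stmn1*, *Hmgb2* and *Pcna*, overlapped between genotypes. These UMIs came from few cells: those with 20 or more UMIs of the list numbered 10 and 5 in WT and 18 and 8 in *Tubb3*-/- mice, which is 4.90% and 2.07% against 8.33% and 3.79% of mesothelial cells. These shares overlap between genotypes. Without those cells the summed level of the list was 289 and 298 CPM in WT and 250 and 266 CPM in *Tubb3*-/- mice, against 614 and 430 and 771 and 744 CPM with them. In mural-enriched cells with at least 5 of the 6 selecting genes, an alternative chosen after the data were seen, none of 28 cell cycle genes had an unadjusted p under 0.05 and the median was -0.13. The other selections kept a median above 0: it was 1.34 without cells holding UMIs of other lineages (15 of 27 higher, 4 called), 0.62 with at least 4 selecting genes (11 of 30 higher, 2 called), 0.59 without states of many doublets (9 of 30 higher, 2 called) and 1.07 without the cells marked as doublets (19 of 30 higher, none called). In the mural-enriched libraries alone it was 0.68 (7 of 30 higher), and in the whole-cell ones alone 1.35 (2 of 5 higher). In the latter, *Tubb3*-/- replicate 2 had 68 *Mki67* and 200 *Ube2c* UMIs, of which the highest cell held 68 and 199. *Tubb3*-/- replicate 1 had 2 and 8 there. Without the cell with most list UMIs of each mouse, the summed level over both libraries was 493 and 312 CPM in WT. It was 649 and 475 CPM in *Tubb3*-/- mice, so the genotypes overlapped. None of the cell cycle genes was lower at this p in any of these selections.

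Growth factor genes were split. Of 33 tested, 5 were higher and 6 lower with a median of 0.02. Hepatocyte growth factor (*Hgf*) was at 10.6 and 6.99 in WT and 47.3 and 22.7 in *Tubb3*-/- mice. Of its UMIs 90.5% were in state 4 (106 CPM, against 1.35 to 5.37 CPM in the other states), and 3 cells held 63.4% of those of *Tubb3*-/- replicate 1. *Pdgfc*, a ligand of PDGFRα, was at 26.7 and 24.4 against 51.9 and 67.4, and *Igf1* at 116 and 146 against 194 and 194. In the other direction *Igfbp3* was at 35.9 and 56.3 against 23.8 and 20.6. State 4 held 7.28% of the *Pdgfc*, 47.7% of the *Igf1* and 51.7% of the *Igfbp3* UMIs. In the TGF-beta pathway 3 of 23 were higher and 3 lower, with a median of 0.00. The co-receptor gene *Tgfbr3* was at 249 and 289 against 399 and 432, and the latency protein *Ltbp4* at 677 and 699 against 500 and 536.

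Complement and acute phase genes were abundant in both genotypes. *C3*, the central complement component, was at 4337 and 5573 normalized CPM in WT and 5069 and 7441 in *Tubb3*-/- mice, which overlap. Of 16 genes of this list, 2 were higher and none lower. These were the acute phase gene *Saa3*, at 38.5 and 20.8 against 71.5 and 102 (uncertain, as it has close copies), and *Cfb*, at 551 and 448 against 680 and 631. Interferon response genes had a median of -0.20, with 5 of 32 lower and none higher; *Gbp2* was at 280 and 193 against 127 and 159, and *Irf1* at 289 and 187 against 169 and 151. When cells with UMIs of other lineages were left out, this median was 0.03, with 2 higher and none lower. The chemokine gene *Cxcl10* overlapped between genotypes, at 368 and 240 against 380 and 203.

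Immediate early and heat shock genes had 5 of 20 lower and none higher with a median of -0.17, among them *Fosb*, at 1521 and 1359 against 1093 and 1144. These genes are known to respond to tissue dissociation. Of 12 tubulin genes 1 was higher and 3 lower; *Tubb4b* was at 376 and 374 against 297 and 307, and *Tubb5* at 226 and 176 against 271 and 243. YAP and TEAD targets had 1 of 16 higher and none lower (median 0.05). Retinoid genes had 1 of 12 higher and 1 lower (median -0.12). Coagulation genes had 1 of 15 higher and none lower (median 0.06). Glycolysis genes had 2 of 18 higher and 1 lower (median -0.06). For p53 targets none of 15 was higher and 2 were lower (median -0.14). Cytokine genes had 2 of 21 higher and 2 lower (median -0.03). In these lists the counts are too small to compare with the background shares. Among cytokines the alarmin gene *Il33* was at 98.6 and 135 against 82.6 and 72.9, and *Ccl2* at 137 and 87.9 against 176 and 159.

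Markers of other cell types were counted in the same way. Of 11 fibroblast markers 3 were higher and 1 lower (median 0.01), of 10 mural markers 1 was higher (median 0.23), of 5 endothelial markers 1 was lower (median -0.33), and of 4 immune markers none passed this p (median 0.15). Then 1 of 10 lung epithelial markers (median 0.46) and 1 of 2 erythroid markers (median 0.91) were higher. The summed lung epithelial level was 287 and 1288 CPM in WT and 589 and 390 CPM in *Tubb3*-/- mice, with WT replicate 2 above the others; 1 cell of that mouse held 3073 of its 3905 *Sftpc* UMIs. Endothelial markers summed to 263 and 285 against 205 and 219 CPM, and erythroid markers to 13.3 and 13.4 against 20.3 and 35.0 CPM. Most of the endothelial sum was *Kdr*, with 986 and 1191 UMIs in WT and 805 and 822 in *Tubb3*-/- mice. *Pecam1* had 41 and 39 against 32 and 30. Only 0.578% of the *Kdr* UMIs were in cells with exactly 3 selecting genes. In state 2, described below, *Kdr* made up 344 of the 365 CPM of this sum, so the sum does not measure endothelial RNA.

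Within the mesothelial cells, clustering gave 7 states, numbered by size and described by the genes that lead them. The genes that define them were found in the same cells, so none is tested. State 1 (208 cells) had *Sftpa1*, *Sftpc* and *Emb* as its first genes, but 1 cell held 535 of the 645 *Sftpa1* UMIs and 3073 of the 3752 *Sftpc* UMIs of the state. Without that cell these surfactant genes of alveolar type 2 cells were at 29.1 and 180 CPM, against 21.9 and 163 CPM in the other states, while *Emb*, a membrane glycoprotein, was at 79.4 CPM without its own highest cell against 22.1 CPM. The state had 9032 CPM of *C3* and 1364 CPM of the Wnt inhibitor gene *Sfrp2*. State 2 (177 cells) was led by *Slurp1* (2508 CPM against 236 CPM in the rest), *Cst9*, *Myl7* and *Clic3*, had the highest *Msln* (4432 CPM), *Igfbp5* (8165 CPM) and *Lrrn4* (567 CPM) of all states, and 98.3% of its cells had 5 or 6 of the selecting genes. State 5 (104 cells) was led by *Nxph1* (1516 CPM) and *Wdr17* and had fewer UMIs, a median of 12158, and more mitochondrial UMIs, a median of 5.64%, than any other state.

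State 3 (127 cells) was led by *Sntg1*, *Pcdh15*, *Zfp804b* and *Fgf1*, and had the highest level of cell cycle genes. Its summed cell cycle level was 2412 CPM against 283 to 539 CPM in the other states, with *Top2a* at 157 CPM. *Lgals7* (459 CPM against 54.2 CPM in the rest) and *Krt19* (809 CPM) were highest here. State 6 (71 cells) was led by *Calca* (260 CPM against 2.47 CPM), *Tafa2* (538 against 14.0 CPM), *Cemip*, *Chrm3*, *Npl* and *Adam12*. *Cemip* encodes a protein that breaks down hyaluronan. *C3* was highest in this state, at 11030 CPM, and so were *Saa3* (311 CPM) and the B cell chemokine gene *Cxcl13* (292 CPM). In contrast, *Igfbp5* was at 203 CPM and *Slurp1* at 10.7 CPM, the lowest of all states, while *Wt1* was at 602 CPM. It held 36 of the 59 cells with *Calca* and 89.2% of the *Calca* UMIs.

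**Figure D5:**
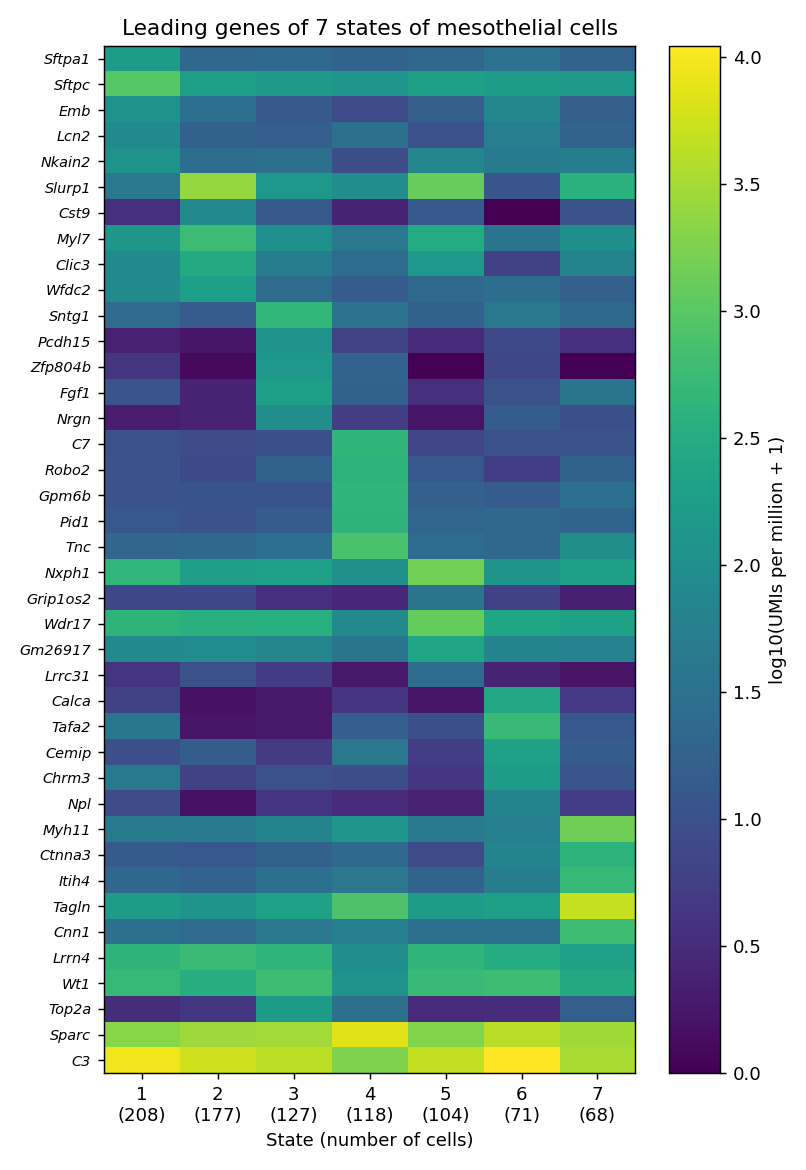
Level of leading genes in the 7 states of mesothelial cells, as log10 of CPM plus 1; columns give the state with its number of cells. Each state is brightest in its own block of leading genes, and Lrrn4 and Wt1 are present in all 7. For the surfactant genes and Lcn2 of state 1 this rests on 1 cell per gene. Without its highest cell Lcn2 is at 32.3 CPM in state 1, against 52.2 CPM in state 6.

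Of state 6, 2 and 11 cells came from WT and 23 and 35 from *Tubb3*-/- mice. This number is not compared as a result, because the genes that define the state are among those that differ between the genotypes. *Tafa2* itself was at 11.8 and 15 normalized CPM in WT and 62.2 and 122 in *Tubb3*-/- mice (edgeR adjusted p = 0.126), and *Cemip* at 11.4 and 5.51 against 37.5 and 65.3 (adjusted p = 0.218), neither called. The other states had between 10 and 65 cells in each mouse.

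The last pair of states held genes of other cell types. State 4 (118 cells) was led by *C7*, *Robo2*, *Gpm6b* and *Pid1*, had 381 CPM of *Pdgfra* against 13.3 to 31.5 CPM in the others, and a summed fibroblast marker level of 13841 CPM. It held 74 of the 122 cells with exactly 3 selecting genes, and 25.4% of its cells were marked as doublets. Of the *Thbs4* UMIs of all mesothelial cells, 88.5% were in it. State 7 (68 cells) was led by *Myh11*, *Ctnna3*, *Itih4* and *Tagln*, of which *Myh11* and *Tagln* are smooth muscle genes. It had *Acta2* at 6868 CPM and a summed mural marker level of 9542 CPM, and 41.2% of its cells were marked as doublets. Of its cells 57.4% had 5 or 6 of the selecting genes, and *Lrrn4* was at 206 CPM. State 4 had the lowest *Msln* (428 CPM) and *Lrrn4* (93.4 CPM) of all states. Whether states 4 and 7 are droplets with 2 cells, cells that express both sets, or other cells just inside the limit was not tested. Without both states, an alternative also chosen after the data were seen, the genotype comparison called 32 genes, 30 higher and 2 lower.

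Since each mouse gave both samples, mesothelial cells of the mural-enriched and the whole-cell libraries could be compared within mice. With the mouse as a block, edgeR called 366 of 12049 genes, 291 higher (2.42%) and 75 lower (0.622%) in the mural-enriched library. Transcripts known from leukocytes and airway cells were among those lower. The macrophage chitinase-like gene *Chil3* fell by 7.32 ± 0.31 on the log2 scale (adjusted p = 1.93e-08), from 79.0 to 120 normalized CPM in the whole-cell libraries to at most 0.975 in the mural-enriched ones. *Scgb1a1*, the secretoglobin of club cells, fell by 3.38 ± 0.17 (adjusted p = 1.25e-07), from 703 to 785 down to 44.0 to 121. *Igkc*, *Ccl6*, *Laptm5*, *Cytip*, *Cd52*, *Tyrobp*, *Gm19951* and *Srgn* completed the 10 largest falls. Of 5 immune markers tested, 3 were lower (*S100a8*, *Tyrobp* and *Lyz2*). Immune markers summed to 477 to 745 CPM in the whole-cell and 101 to 305 CPM in the mural-enriched mesothelial cells, and their part was not tested; the selection keeps every cell free of *Ptprc*.

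Genes of matrix and of the mesenchyme were among those higher in the mural-enriched library. Of 19 transition genes 11 were higher, of 38 matrix genes 16, of 11 fibroblast markers 7 and of 9 mural markers 7, and none of these was lower. The lists share genes, such as *Col1a1*, so these counts are not separate. Tenascin C (*Tnc*) rose by 4.39 ± 0.35 (edgeR adjusted p = 5.31e-06), from 0 to 12.2 normalized CPM to 62.6 to 315. The smooth muscle actin gene *Acta2* rose by 3.69 ± 0.30, from 39.5 to 148 up to 725 to 1608. Other genes of the 10 largest rises were *Csmd1*, *Col8a1*, *Thbs4*, *Gfra2*, *Actg2*, *Adamts4*, *Gm16685*, *Ager* and *Itih4*. Of these, *Ager* is a lung epithelial marker. Over both libraries, 1 cell held 278 of its 344 UMIs in WT replicate 2 and 1 cell 272 of 488 in *Tubb3*-/- replicate 1. Cells with exactly 3 selecting genes held 63.6% of the *Ager*, 66.2% of the *Col8a1* and 88.3% of the *Thbs4* UMIs. *Col1a1* rose by 1.07 ± 0.12 and elastin (*Eln*) by 1.03 ± 0.10. *Il6* was at 5.28 to 19.8 in the whole-cell libraries and rose by 3.10 ± 0.25. Of 28 other mesothelial markers 2 were lower and none higher, and of 16 junction genes 1 was lower and none higher: *Lrrn4* fell by 0.55 ± 0.11 (adjusted p = 0.0109), *Ezr*, which encodes ezrin, fell by 0.47 ± 0.11 (adjusted p = 0.0381) and the junction gene *F11r* fell by 0.53 ± 0.12 (adjusted p = 0.0272). The level of *Upk3b*, which the selection used, was lower in the mural-enriched library of every mouse.

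Fewer genes were called when cells with transcripts of other lineages were left out. Mural markers summed to 70.5 to 246 CPM in whole-cell and 1011 to 2118 CPM in mural-enriched mesothelial cells. With at least 4 of the 6 selecting genes 114 genes were called, without cells holding UMIs of other lineages 91, and without states 4 and 7 there were 69, of which 33 were higher and 36 lower. The 98 whole-cell mesothelial cells held 1 cell of state 7 and 4 of state 4. The libraries also differ in the sort and in the run, which cannot be told apart here. Without WT replicate 1 the comparison called 215 genes.

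Whether the genotype difference of mesothelial cells differed from that of fibroblast-marked cells of the same mice was tested as an interaction, with the mouse as a block. None of 16247 genes passed the test, and at an unadjusted p under 0.05 the difference was higher in mesothelial cells for 740 genes (4.55%) and lower for 667 (4.11%); limma-voom called 1. Without WT replicate 1 there were 116 calls, and without WT replicate 2 there was 1. The lowest p was that of *Spp1*, osteopontin (difference -1.56 on the log2 scale, edgeR adjusted p = 0.0791). It was at 235 and 97.0 normalized CPM in WT and 365 and 234 in *Tubb3*-/- mesothelial cells, and at 563 and 241 against 2639 and 1664 in fibroblast-marked cells. In mesothelial cells 1 cell held 592 of the 1023 UMIs of WT replicate 1 and 1 cell 611 of the 1728 of *Tubb3*-/- replicate 1, and without the highest cell of each mouse the levels were 100 and 97.1 CPM against 243 and 186 CPM. State 4 held 65.0% of the mesothelial *Spp1* UMIs, at 842 CPM against 89.0 to 115 CPM in the other states. *Calca* had a difference of 4.45 (adjusted p = 0.0936), with 0.300 to 0.471 normalized CPM in the fibroblast-marked cells of all mice. For *Maf*, a transcription factor, the mesothelial values were 91.5 and 124 against 215 and 282, and the fibroblast-marked ones 121 and 140 against 97.2 and 103 (difference 1.59, adjusted p = 0.0936). The growth factor gene *Fgf18* was at 43.0 and 32.7 against 25.2 and 24.8 in mesothelial and at 7.09 and 4 against 12.9 and 12.8 in fibroblast-marked cells. *Alpk1*, *Map3k5*, *Txndc11*, *Adamts9*, *Plxna2* and *Shb* made up the other genes of lowest p, and none was called.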

How the data were processed

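Single-cell RNA-seq counts were analysed in lung cells of 2 WT and 2 *Tubb3*-/- mice. The authors deposited 8 matrices of raw UMI counts per gene and cell, 2 per mouse, made with Cell Ranger 7.1.0 on mm10 with an added *Cre* sequence, without normalization or correction for free RNA. Tag counts in the matrices were set aside. Cell annotation from the study was not used. The mesothelial cells and all gene lists were chosen with earlier results of these data known.

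Cells had 200 to 7500 genes and at most 15% mitochondrial UMIs. For comparison, cells that were not selected were classed as fibroblast-marked (*Pdgfra* and at least 2 of *Dcn*, *Col1a2* and *Lum*), mural-marked (no *Pdgfra*, at least 2 of *Notch3*, *Cspg4*, *Cox4i2*, *Higd1b*, *Myh11* and *Cnn1*), epithelial-marked (*Epcam*), endothelial-marked (*Cdh5*) or immune-marked (*Ptprc*). Doublets were scored by the Scrublet method in scanpy 1.11.5 and kept in the main analysis. States came from Leiden clustering (leidenalg 0.10.2) with 1000 variable genes, 20 components, 15 neighbours and a resolution of 0.5. Leading genes were ranked by the log2 ratio of CPM plus 5 among genes in at least 20% of a state's cells.

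UMIs were summed per mouse (per library for the pools) and compared in R 4.3.3 by the quasi-likelihood F test of edgeR 4.0.16, after filterByExpr and TMM scaling. All p-values of a comparison were adjusted by the Benjamini-Hochberg method, and 0.05 was the threshold. Shares were compared by an exact two-sided permutation test over mice. Shares of cells with a UMI used cells thinned to 5000 UMIs. Intervals are Wilson 95% intervals and cover counting error only. Replicates are mice, and the 4 samples of a pool shared a run. The tests were tried on simulated counts with 200 changed genes. At log2 changes of 1, 2 and 4, the genotype test recovered 62%, 97% and 100% of them, with 11.4%, 12.2% and 4.8% of the calls false; the pool test recovered 60.5%, 98.5% and 100%, and the interaction test 32.5%, 74.5% and 94%.

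The genes named were the selecting genes, *Tubb3* and *Cre*, for each comparison the 10 largest rises and 10 largest falls among called genes of at least 10 CPM that moved one way in all mice (the 10 of lowest p where under 5 were called), and in each list the called members and the 3 most abundant ones. Other list members, *Tafa2* and *Cemip*, and the leading genes of classes and states, were chosen after their values were seen. Alternatives were limma-voom (limma 3.58.1), DESeq2 1.42.0, RLE size factors, no filter, a replicate block, leaving out each mouse, stricter selections, a 10% mitochondrial limit and each pool alone. Coordinates are those of GENCODE vM21 (GRCm38), and promoters those of RefSeq for GRCm38.p6. Whether the counting used strand is not given in the sources used here, so genes that overlap others are uncertain to that extent, among the main ones *Gpm6a*, *Muc16*, *Slurp1*, *Adam12*, *Cenpf*, *Chl1*, *Ltbp2*, *Shroom3*, *Lrat*, *Rcan2*, *Col4a1*, *Col4a2*, *Col1a2*, *Fn1*, *Rarres2*, *Tubb4b* and *Cxcl10*.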

Additional observations from a re-analysis of the deposited data

How the results depend on the processing

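Against the 1 gene called between genotypes, limma-voom called 0, no filter on low counts 35, DESeq2 43, at least 4 of the 6 markers 19, and the selection without cells holding UMIs of other lineages 25. Leaving out 1 mouse gave 2 to 26 calls. Alternatives chosen after the data were seen gave 35 (mural-enriched cells with at least 5 of the 6 markers) and 32 (without the states of over 10% doublets). *Calca* was called in 15 of 17 alternatives, missed with limma-voom and untested in whole-cell libraries alone. With the replicate block 318 of all 12681 genes tested were called, 179 higher and 139 lower. Among them were 10 of 30 cell cycle, 10 of 38 matrix and 7 of 28 other mesothelial genes. The labels tie the numbers to no litter or day. Same-numbered mice were of 1 sex, so the block also takes up sex, and their deviations correlated at r = 0.30 over 9118 genes. For the pools, against 366 calls, no filter gave 759, at least 4 markers 114, no other lineages 91, no Scrublet doublets 242, no mixed states 69, and leaving out 1 mouse 215 to 301. For the interaction, against 0 calls, limma-voom gave 1, no filter 296, at least 4 markers 47, no other lineages 164, no mixed states 67, and leaving out 1 mouse 0 to 116. The cause of these differences was not tested. The log2 ratio of whole-cell shares was -0.98 to 0.45 when 1 mouse was left out, positive only without WT replicate 2, and that of mural-enriched shares -0.51 to -0.20. Over the alternatives, the genotype differences of 43 of 122 genes looked up took both signs, among them 10 of the 74 with an unadjusted p under 0.05. These were, with the values of opposite sign, *Fn1* (-0.39 without other lineages, -0.28 without mixed states and -0.21 in whole-cell libraries), *Col8a1* (-0.33 without mixed states), *Prc1*, *Mki67* and *Ube2c* (-0.16, -0.71 and -0.02 with at least 5 markers), and in whole-cell libraries *Lgals7* (0.04), *Col1a2* (-0.02), *Igf1* (-0.04), *H2-K1* (0.01) and *Cdkn1a* (0.04). The 98 whole-cell mesothelial cells limit that comparison.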
